A study of Mus musculus with 12 samples.

Results

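Firmicutes and Bacteroidota are described here across 115 libraries of fecal 16S rRNA gene reads from mice and across 12 deposited group values. The 2 phyla were chosen by name, as 2 of 34 named phyla in the female tables and 2 of 84 in the male tables, and both had a row in each of the 4 tables. The labels give 12 groups, formed by sex, prior feed (CD or HfiD, each for 5 weeks) and the duration of the HFD that followed (0, 4 or 8 weeks). From the title of the series, HfiD is the feed high in fiber and HFD the one high in fat, while CD is not spelled out. Strain, age and the number of mice in a group were not given. DNA from fecal pellets was amplified with barcoded primers for a variable region of the gene and sequenced on an Illumina instrument. Every group was labelled fecal, and HFD at 4 or 8 weeks always followed 1 of the 2 feeds, so it cannot be told apart from age or from the end of that feed.

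Firmicutes (also named Bacillota) include the Clostridia, many of which form butyrate, and the lactobacilli. Bacteroidota (also named Bacteroidetes) degrade plant and host polysaccharides with large sets of carbohydrate-active enzymes and release acetate, propionate and succinate. In the mammalian colon these are usually the leading phyla, and the ratio between them is a common summary of how a community answers to diet. A 16S share is a part of a whole, so a rise of one phylum lowers the shares of the others even where their cell numbers stay the same.

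The female table holds 48 libraries under 16 codes, and each code occurs once without a suffix, once with the suffix 4w and once with 8w. The male table holds 67 libraries, none with such a suffix, so no male library has a week here. No library of either table was assigned to a feed, and all library groups below pool whatever feeds they hold. Library values are percent of 16S reads. In each table every value was a whole multiple of a common step, 0.00203% in the female and 0.00226% in the male table (tolerance 1e-06 of a step). Read depth is not stated, and none was inferred from that step. For each phylum of the female table, the mean over the 16 libraries of a suffix, or over the 16 without one, lay within 4.1e-05 percentage points of the mean of the 2 group columns named the same way. In females, 12 listed phyla typical of soil or water, 10 of them with a row, summed to at most 0.802% in a library without suffix, 0.0061% in a 4w library and 0.0732% in an 8w library. In males the same list summed to between 0.00451% and 4.45%. These sums moved with the suffix, and their part in the values below was not tested.

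Female libraries without a suffix held more Bacteroidota than Firmicutes in 12 of 16 cases, 4w libraries in 0 of 16 and 8w libraries in 3 of 16. Firmicutes ranged from 16.4% to 55.8% with a median of 31.9% without suffix, from 44.6% to 78.6% with a median of 68.5% at 4w, and from 21.9% to 81.1% with a median of 64.8% at 8w. The libraries without suffix lay low, but their range overlapped both others. Bacteroidota ranged from 19.9% to 64.2% with a median of 49.99% without suffix, from 4.84% to 44.4% with a median of 19.3% at 4w, and from 1.36% to 67.5% with a median of 24.5% at 8w. Bacteroidota reached 40% in 13 of 16 libraries without suffix, in 1 at 4w and in 2 at 8w, and lay under 10% in 0, 4 and 4 libraries respectively. Libraries without suffix were not tested against the others, because their names give no week.

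**Figure D1:**
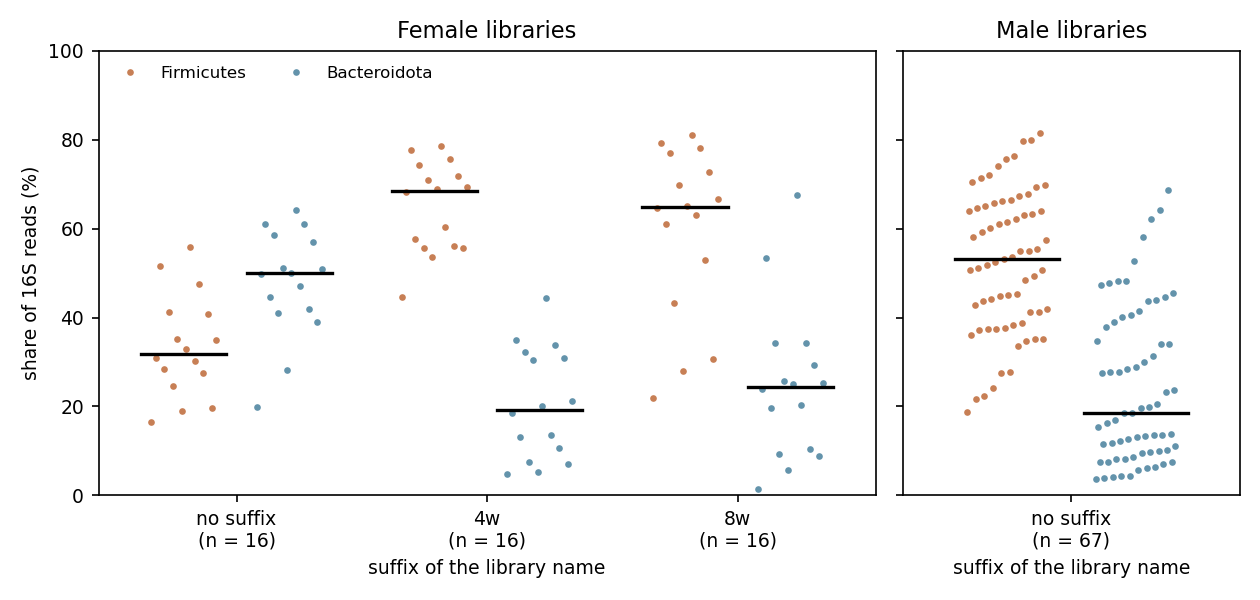
Share of 16S reads (percent, vertical axis) of Firmicutes and Bacteroidota, 1 point per library, by the suffix of the library name, with the median as a bar. Female medians of Firmicutes are 31.9%, 68.5% and 64.8% without suffix, at 4w and at 8w, and those of Bacteroidota 49.99%, 19.3% and 24.5%. The 67 male libraries carry no week.

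The log2 ratio of Firmicutes to Bacteroidota had a median of -0.58 without suffix, 1.86 at 4w and 1.46 at 8w. It ran from -1.97 to 1.49 without suffix, from 0.01 to 4.00 at 4w and from -1.27 to 5.75 at 8w. A value of 0 means equal shares, so the lowest 4w library, with 44.6% Firmicutes and 44.4% Bacteroidota, stood at balance. A ratio of at least 8 was reached by 0, 4 and 4 libraries in the same order. The highest 8w library held 72.8% Firmicutes and 1.36% Bacteroidota, a ratio of 53.6, and its largest other phylum was Euryarchaeota, archaea that include gut methanogens, at 11.01%. The lowest 8w library held 28.03% Firmicutes and 67.5% Bacteroidota, a ratio of 0.416. The next highest ratio at 8w was 13.7, so the top of that range is 1 library.

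Followed by code, Firmicutes were higher in the 4w library than in the library without suffix for 16 of 16 codes, by a median of 35.9 percentage points and by as little as 1.86 points. Bacteroidota were lower for 14 of 16 codes, with a median difference of -31.0 points. The log2 ratio was higher for 15 of 16 codes, with a median difference of 2.69. The exception held 55.8% Firmicutes and 19.9% Bacteroidota without suffix, the highest ratio of that class, and 57.7% and 30.5% at 4w. Against the library without suffix, 8w libraries held more Firmicutes for 14 of 16 codes and a higher ratio for 13 of 16. From 4w to 8w the codes parted: the ratio was higher at 8w for 7 of 16 and lower for 9. Of those 9, 7 still lay above the library without suffix. The largest fall was from 1.78 to -1.27 on the log2 scale, as Bacteroidota went from 20.035% to 67.5%. The largest rise was from 0.79 to 3.12, as Bacteroidota went from 32.3% to 8.89%. Whether a code marks 1 mouse is not stated in the labels.

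**Figure D2:**
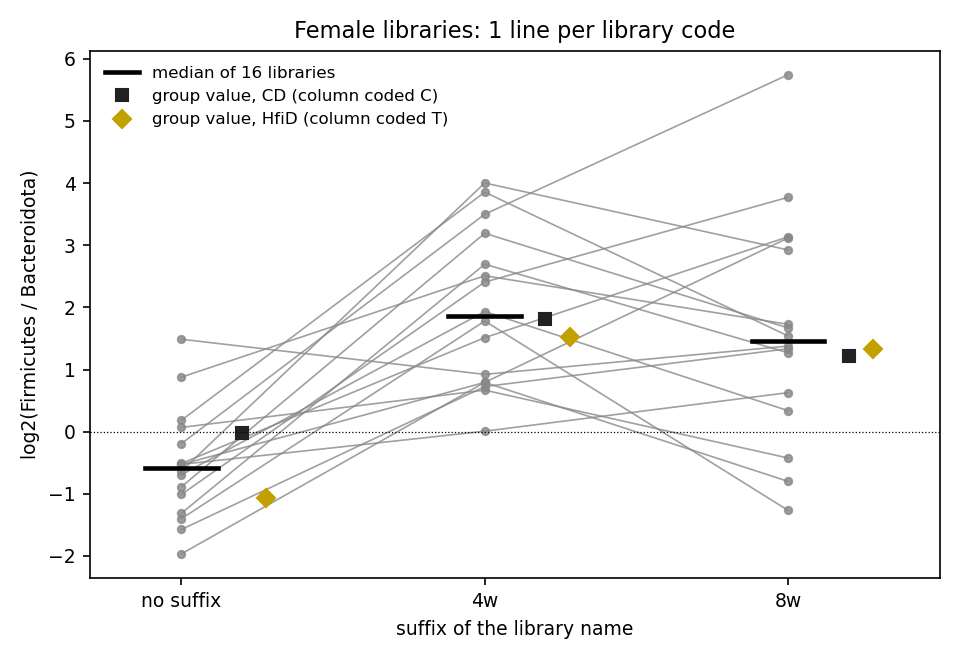
Log2 ratio of Firmicutes to Bacteroidota (vertical axis) in the 48 female libraries by suffix, with 1 line for each of the 16 codes. Bars are medians of 16 libraries (-0.58, 1.86 and 1.46), and squares and diamonds are the deposited group values. Lines rise to 4w for 15 of 16 codes and then spread in both directions.

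The 8w libraries were tested against the 4w libraries, the only classes whose names give a week. Neither phylum differed beyond the spread between libraries. Mean Firmicutes were 59.7% ± 19.1 (SD, n = 16) at 8w and 64.9% ± 10.2 (SD, n = 16) at 4w, a difference of -0.20 on the log2(percent + 0.01) scale with a 95% interval from -0.52 to 0.12 and an adjusted p of 0.51 (2-sided permutation test, 100000 resamples). Mean Bacteroidota were 24.6% ± 17.3 (SD, n = 16) at 8w and 20.5% ± 12.5 (SD, n = 16) at 4w, a difference of 0.13 with an interval from -0.76 to 1.003 and an adjusted p of 0.94 in the same permutation test. On a centred log ratio the Bacteroidota difference had the other sign (-0.40, adjusted permutation p = 0.58), and that of Firmicutes was -0.72 (adjusted permutation p = 0.053). Without the 8w library of 1.36% Bacteroidota, the one farthest from its week's median, the Bacteroidota difference was 0.38 (adjusted permutation p = 0.47). Without the 8w library of 21.9% Firmicutes, the farthest for that phylum, the Firmicutes difference was -0.11 (adjusted permutation p = 0.62). Of the 9 phyla past a mean of 0.01%, 0 were called at an adjusted p below 0.05, which is 0% of those tested, and 0 of the 2 phyla described here. At an unadjusted p under 0.05 there was 1, Verrucomicrobiota, to which the mucus-feeding Akkermansia belongs (adjusted permutation p = 0.062). Limma also called 0, with 1 at an unadjusted p under 0.05. That was again Verrucomicrobiota, near the threshold at a limma adjusted p of 0.052. The mean log2 ratio was 1.63 at 8w and 1.96 at 4w, a difference of -0.33 with an interval from -1.45 to 0.81 (permutation p = 0.56). That interval spans shifts of either sign, so the test does not show that the balance stayed the same. P-values measure the spread between libraries, which hold both feeds and may share animals.

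The libraries lay farther apart at 8w than at 4w by the SD of the log2 ratio, 1.81 against 1.26, but the difference of 0.55 was not beyond what permuting the weeks gave (2-sided permutation test, p = 0.20). Without the 8w library of ratio 53.6 the difference in SD was 0.23 (permutation p = 0.41), and without that library the difference in mean log2 ratio was -0.60 (permutation p = 0.23). The interquartile width of the log2 ratio was 0.96 without suffix, 2.03 at 4w and 2.42 at 8w.

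At 4w and 8w Bacteroidota varied more in proportion than Firmicutes. On the log2(percent) scale, the interquartile width of Bacteroidota was 1.68 at 4w and 1.59 at 8w, against 0.37 and 0.55 for Firmicutes. Without suffix the widths were 0.46 and 0.61, in the other order. At 4w the highest Firmicutes share was 1.76 times the lowest, while the highest Bacteroidota share was 9.17 times the lowest. In the male table the widths were 1.96 for Bacteroidota and 0.70 for Firmicutes. A share that starts high has less room to change in proportion than a low one, and these widths were not tested against each other.

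**Figure D3:**
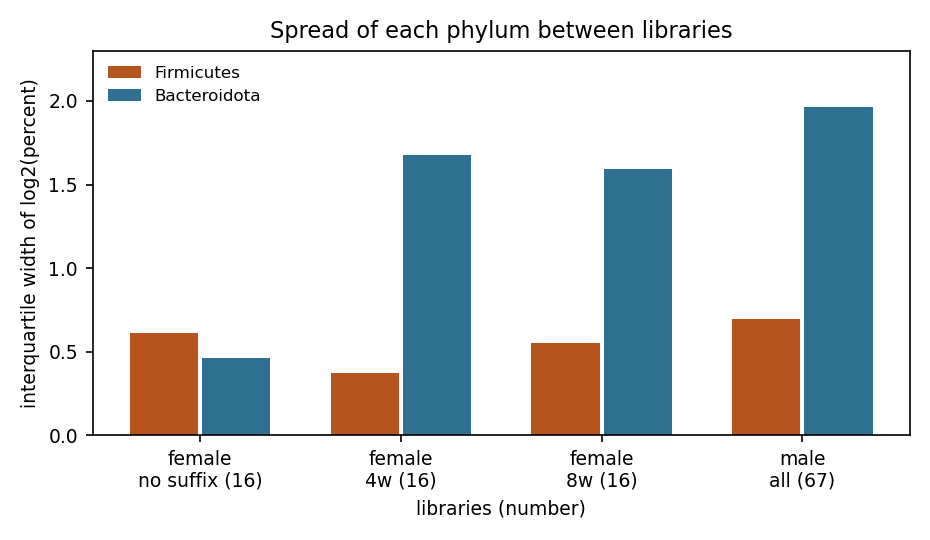
Interquartile width of log2(percent) across libraries (vertical axis, from 0) for Firmicutes and Bacteroidota in 4 sets of libraries. Bacteroidota are the wider phylum at 4w (1.68 against 0.37), at 8w (1.59 against 0.55) and in males (1.96 against 0.70), and the narrower one without suffix (0.46 against 0.61).

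Together the 2 phyla made up 51.3% to 95.5% of reads in female libraries, with a median of 85.1%, and 34.7% to 94.6% in male libraries, with a median of 80.7%. They held the 2 largest shares in 40 of 48 female and 42 of 67 male libraries. By suffix, this was so in 16 of 16 female libraries without one, in 12 at 4w and in 12 at 8w. In 1 library of each sex another phylum was the largest. The female one was an 8w library of 21.9% Firmicutes and 29.4% Bacteroidota, in which Verrucomicrobiota held 43.6%. The male one held 21.7% Firmicutes, 13.05% Bacteroidota and 57.0% Actinobacteriota, the phylum of Bifidobacterium. The largest other phylum was Actinobacteriota in 23 female and 36 male libraries. In females it was otherwise Verrucomicrobiota (12 libraries), Desulfobacterota, which hold sulfate reducers (12), or Euryarchaeota (1), and in males Proteobacteria, the phylum of Escherichia (16), Desulfobacterota (10) or Verrucomicrobiota (5). Without suffix, Verrucomicrobiota led the rest in 8 of 16 female libraries, at 4w in 0 and at 8w in 4. The 8 other listed gut phyla summed to a median of 19.3% without suffix, 13.05% at 4w, 13.4% at 8w and 17.5% in males.

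**Figure D4:**
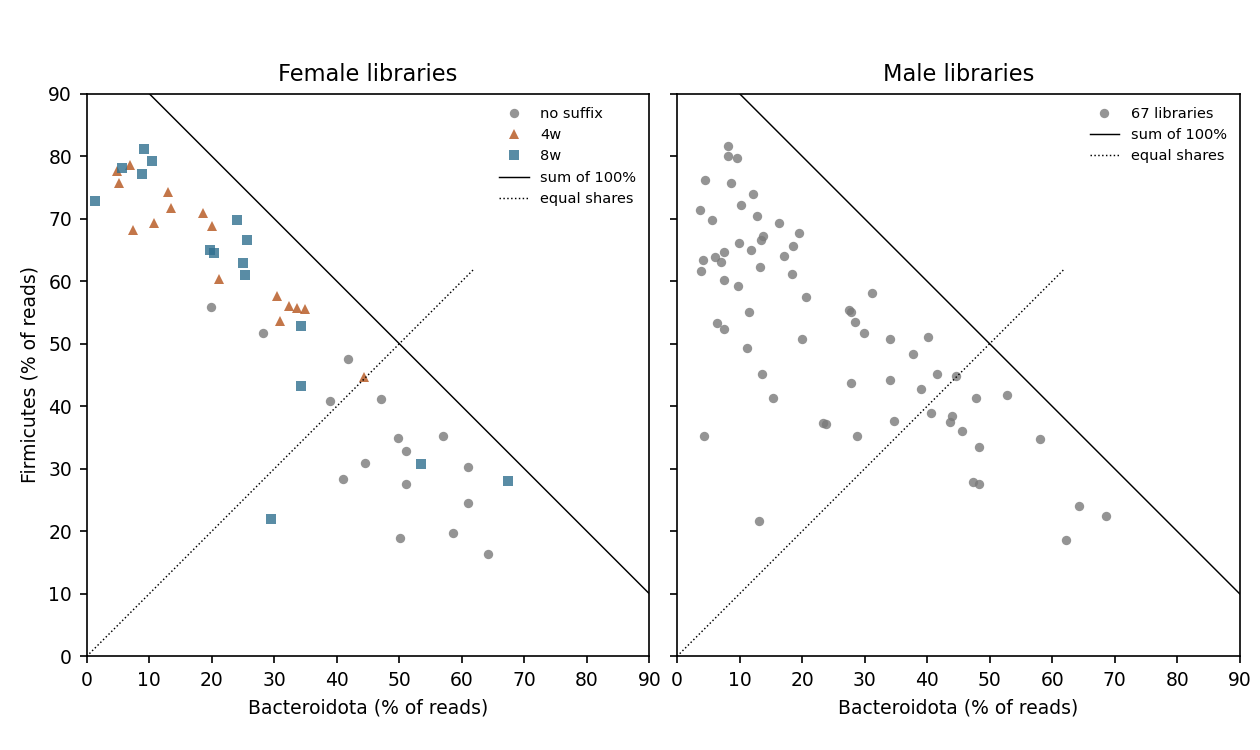
Firmicutes (vertical axis) against Bacteroidota (horizontal axis), percent of reads, 1 point per library. The solid line marks a sum of 100% and the dotted line equal shares, above which lie 33 of 48 female and 54 of 67 male libraries.

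In the male libraries, Firmicutes ranged from 18.7% to 81.6% with a median of 53.2% and quartiles of 40.1% and 64.9%. Bacteroidota ranged from 3.67% to 68.6% with a median of 18.6% and quartiles of 9.85% and 38.4%. The log2 ratio ran from -1.74 to 4.28 with a median of 1.48, and 13 of 67 libraries held more Bacteroidota than Firmicutes. A ratio of at least 2 was found in 37 libraries and one of at least 8 in 14. The lowest library held 18.7% Firmicutes and 62.2% Bacteroidota, and the highest 71.5% and 3.67%, so the ratio went from 0.300 to 19.5. Firmicutes reached 50% in 39 of 67 libraries, and Bacteroidota 40% in 16. The second-lowest sum of both phyla in males, 39.6%, was a library with 35.2% Firmicutes, 4.33% Bacteroidota and 31.6% Verrucomicrobiota, so a ratio of 8.14 was reached there with Firmicutes below their median.

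**Figure D5:**
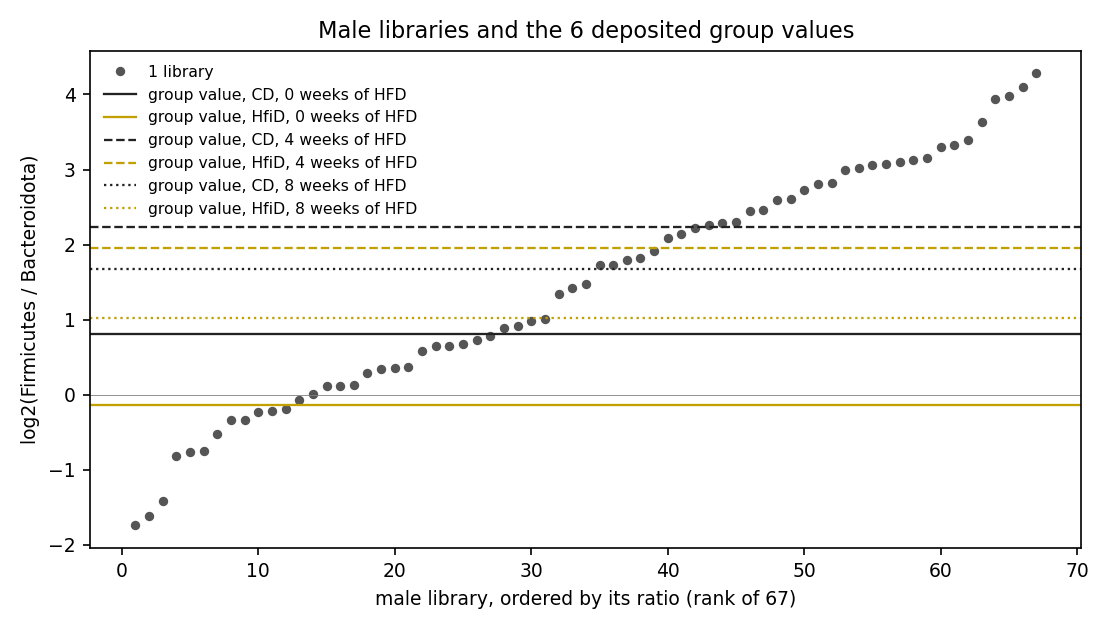
Log2 ratio of Firmicutes to Bacteroidota (vertical axis) in 67 male libraries ordered by that ratio (horizontal axis), with the 6 deposited male group values as lines. Libraries run from -1.74 to 4.28, and the group values from -0.13 to 2.23.

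Each deposited group value is given as 1 number per group and was not tested. It may be a mean over several libraries, and libraries were not matched to group values to recover their feed. In females the group values averaged to the means of the libraries, as given above. The spread of single libraries is therefore not the error of such a value, and it cannot show which groups differ. That error was not computed here, because libraries were not split by feed. In females, columns coded C were read as CD and columns coded T as HfiD by elimination, so the sign of each female difference between feeds rests on that reading. Female columns without a suffix were read as 0 weeks, also by elimination. The female group log2 ratios were, from the lowest, -1.07 (HfiD, 0 weeks), -0.02 (CD, 0 weeks), 1.21 (CD, 8 weeks), 1.34 (HfiD, 8 weeks), 1.52 (HfiD, 4 weeks) and 1.81 (CD, 4 weeks). Among the upper 4, neighbours lay 0.12 to 0.29 apart. The male order was -0.13 (HfiD, 0 weeks), 0.81 (CD, 0 weeks), 1.03 (HfiD, 8 weeks), 1.67 (CD, 8 weeks), 1.96 (HfiD, 4 weeks) and 2.23 (CD, 4 weeks). Male neighbours lay 0.21 to 0.94 apart. Whether neighbours differ was not tested in either sex.

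The difference between feeds (HfiD minus CD) in the female columns without suffix was -1.05. Of the 16 libraries without suffix, 4 lay below the HfiD value and 12 below the CD value. At 4 weeks the difference was -0.29, with 7 of 16 libraries below the HfiD value and 8 below the CD value. At 8 weeks it was 0.12, with 7 and 5 of 16 libraries below. These places set a log2 ratio of group shares against log2 ratios of single libraries, which are unlike measures. The log2 ratio of the mean shares was 1.66 at 4w, where the library log2 ratios had a mean of 1.96. At 8w these values were 1.28 and 1.63, and without suffix, in the other order of size, -0.51 and -0.54. The male differences were -0.94, -0.27 and -0.65 at 0, 4 and 8 weeks. Against all other reads in place of Bacteroidota (the logit of the Firmicutes share, in log2 units), the female difference at 8 weeks was 0.44, and the male ones at 4 and 8 weeks were -0.45 and -0.24.

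The 2 phyla were most unlike each other. Over all libraries of a table, Spearman's rho between their shares was -0.92 in females (48 libraries) and -0.71 in males (67 libraries), and within the female classes it was -0.73 without suffix, -0.91 at 4w and -0.87 at 8w. Shares of a library sum to 100% and codes repeat, so these are descriptions. Among named phyla with a median of at least 0.01%, 7 in females and 17 in males with both phyla counted, the highest rho with Firmicutes over all libraries of a table was that of Desulfobacterota in both tables (0.41 and 0.35), followed by Deferribacterota in females (0.30) and Nitrospirota in males (0.12). After Bacteroidota, the lowest was that of Proteobacteria in females (-0.57) and Verrucomicrobiota in males (-0.41). For Bacteroidota the highest were Proteobacteria (0.58) and Actinobacteriota (-0.24) in females, and Patescibacteria (0.25) and Proteobacteria (0.22) in males. After Firmicutes, the lowest was Desulfobacterota in both tables (-0.36 and -0.59). The female ranks pool classes whose levels differ, and within the classes the order was another. With Firmicutes, rho of Desulfobacterota was 0.61 without suffix, -0.21 at 4w and -0.04 at 8w, and that of Deferribacterota was 0.34, -0.04 and -0.25. The Spearman correlation of Proteobacteria with Firmicutes was -0.44, -0.12 and 0.02 in the same order. At 4w and 8w the highest rho with Firmicutes was that of Actinobacteriota, at 0.43 and 0.59, against -0.15 without suffix, a phylum singled out here after its values were seen. With Bacteroidota, rho of Actinobacteriota was -0.34 without suffix, -0.42 at 4w and -0.65 at 8w, the lowest after Firmicutes in the latter 2 classes. The Spearman correlation of Proteobacteria with Bacteroidota was 0.56, 0.27 and -0.02, and that of Desulfobacterota -0.44, 0.06 and 0.11.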

How the data were processed

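The authors deposited fractions of 16S reads per phylum, in 1 table of libraries and 1 of groups for each sex. Per the submitters' processing notes, fastp 0.23.1 and R 4.0.3 were used, with no role named. How reads were denoised, classified or thinned, and how group values were formed, is not given in the sources used here. Fractions were multiplied by 100. Older and newer phylum names were matched by a list of synonyms.

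The 115 library columns match no single label, so they were put in no group. A week was read only from a suffix 4w or 8w, which female names alone carry. The planned comparison of weeks was therefore not run in males. It was run in females for all phyla with a mean of at least 0.01% over the 32 libraries compared, on log2(percent + 0.01), by a 2-sided permutation test with 100000 resamples and Benjamini-Hochberg adjustment over the 9 phyla. Intervals (95%) invert that test. The log2 ratio has no pseudocount, and its test is the 1 such test that was run, so its p is unadjusted. Spread was tested by permuting weeks of median-centred values. Correlations were computed over libraries or codes. Named phyla followed a fixed rule: both phyla throughout, the largest other phylum in a library that is named, and the 2 highest and 2 lowest by Spearman's rho. Exceptions, named after their values were seen, were Actinobacteriota within the female classes, and Actinobacteriota and Verrucomicrobiota in the comparison of weeks. The test code was checked on simulated data. Alternatives were other pseudocounts, filters and scales, limma 3.58.1, medians, ranks, pairing by code and leaving out libraries.

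The members, lists and tests were chosen with earlier results of these data known. Python 3.11.15, NumPy 2.4.6, pandas 2.3.3, SciPy 1.17.1, matplotlib 3.10.9 and R 4.3.3 were used.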

Additional observations from a re-analysis of the deposited data

How the results depend on the processing

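For 8w against 4w, neither phylum nor their ratio passed the threshold under any alternative that was run. The difference in log2 ratio kept its sign in 6 of 6 alternatives (p from 0.23 to 0.56) and, in a check added after the data were examined, in 32 of 32 libraries left out in turn, with values from -0.60 to -0.13. Firmicutes kept their sign in 10 of 10 alternatives, with the lowest adjusted p of 0.053 under a centred log ratio. Pairing by code, and limma for the shares, leave the estimate unchanged by design, so in these counts their sign could not change. Bacteroidota kept theirs in 9 of 10 and stood at -0.40 under a centred log ratio (adjusted p = 0.58), which takes 0.52 off the log2 difference of every phylum. That 0.52 is the mean difference over the 9 phyla, while their median difference was 0.16. The mean includes 3.29 for Verrucomicrobiota, whose median share was listed at 0 in both weeks. In each of the 7 alternatives for which calls were counted, 0 phyla were called. These were 2 other pseudocounts, no filter, a filter of 0.1%, the centred log ratio, pairing by code and limma. The filter of 0.1% kept the same 9 phyla as the main test. Calls over all phyla were not counted on plain percent, ranks or medians. The difference in SD ran from 0.23 to 0.64 when each library was left out in turn. The 6 differences between feeds kept their sign when the logit of the Firmicutes share replaced the ratio, but 3 of them moved by over 1.5 times: 0.44 in place of 0.12 in females at 8 weeks, and -0.45 in place of -0.27 and -0.24 in place of -0.65 in males at 4 and 8 weeks. With the code as a replicate block (sign flips over 16 codes), the difference in log2 ratio of -0.33 had a permutation p of 0.44. Same-coded 4w and 8w libraries did not all deviate together, and the correlation of their profiles of 9 phyla ran from -0.20 to 0.68, above 0.1 for 7 of 16 codes, and 1 of 16 correlated best with its own code. Read depth is not stated and was not inferred from the common step of the values, so no counting error was set.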

Other observations

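Ratios taken from group values and from libraries differ in size. At 4w the mean of the 16 library log2 ratios was 1.96, while the log2 ratio of the mean shares was 1.66, and at 8w the values were 1.63 and 1.28. Without suffix they were -0.54 and -0.51. In males the mean over 67 libraries was 1.45 and the log2 ratio of the mean shares 1.11. In each of these 4 sets the log2 ratio of the mean shares lay nearer to 0.

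Across the 16 female codes, the log2 ratio without suffix showed little relation to that at 4w (Pearson's r = 0.09, Spearman's rho = 0.10, permutation p = 0.75 and 0.71, adjusted p = 0.85 and 0.75 over 9 relations), and r was 0.27 without the 2 codes farthest from the median without suffix. Between 4w and 8w it was r = 0.46 and rho = 0.48 (permutation p = 0.071 and 0.062, adjusted p = 0.58 and 0.28 over 9 relations), and r = 0.49 without the 2 codes farthest from the 4w median. Neither passed the threshold.

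Outside the 2 phyla, Actinobacteriota stood at 4.197% ± 2.74 (SD, n = 16) at 8w and 8.997% ± 5.02 (SD, n = 16) at 4w. On the log2(percent + 0.01) scale their difference was -0.86 (adjusted p = 0.42, permutation test). No p for their difference in percent is given here, and neither the 0.42 nor the count of 0 called phyla covers that scale. The median share of Actinobacteriota was 4.25% at 8w and 9.82% at 4w. Verrucomicrobiota were above 0 in 7 of 16 libraries at 8w and in 2 of 16 at 4w, and the median was listed at 0 in both weeks. The difference of Verrucomicrobiota on the log2 scale was 3.29 (adjusted p = 0.062, permutation test).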
